A study of Mus musculus with 2 samples.

Results

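The 10 Hippo pathway genes Stk3, Stk4, Sav1, Nf2, Lats1, Lats2, Mob1a, Mob1b, Yap1 and Wwtr1 were followed in single-cell RNA sequencing of mouse bone marrow. They were chosen by gene symbol, and all 10 symbols matched a single row each of the 32285 genes listed. Of these genes, 6 had more than 3 counts in each of the 15 cell types that could be described in the control library and Stk3 and Nf2 in 14 of them, whereas Yap1 was seen in 5 and Wwtr1 in 59 of 16683 cells.

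The data came from 2 groups with 1 library each. Per the study's methods both groups carried the Mx1-Cre transgene on a C57BL/6 background, which is induced by interferon and is not restricted to neutrophils. The methods name the control littermates (Ctrl) Mx1-Cre Map4k4-/- and the conditional knockout littermates (cKO) Mx1-Cre Map4k4 f/f. The sample label of Ctrl reads control, and the study elsewhere calls these cells wildtype. Whether -/- stands for a deleted gene or for the absence of the floxed allele is therefore not clear from the sources used here. The methods describe poly I:C injections, which induce the Cre, for the f/f mice. All mice were 13 to 14 weeks old, and the number of mice behind each library is not given in the sources used here. Bead-enriched c-Kit+ stem and progenitor cells were mixed with whole marrow at 2 parts to 3, so shares of cell types do not give those of the marrow. With 1 library per group there was no replicate and no test between libraries; all intervals below are 95% intervals of counting error only.

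In most tissues the Hippo pathway works as a chain of kinases. NF2 (merlin) and other membrane-bound proteins bring the kinases STK3 (MST2) and STK4 (MST1), held by the scaffold SAV1, to the kinases LATS1 and LATS2, which act with the co-activators MOB1A and MOB1B. LATS kinases phosphorylate YAP1 and WWTR1 (TAZ), which keeps these co-activators out of the nucleus, where they would otherwise bind TEAD transcription factors. MAP4K4, the kinase targeted in the study, is known to act on LATS kinases in parallel to STK3 and STK4. In blood cells STK4 is best known from lymphocytes, where it serves partly outside this chain.

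After a filter on detected genes and mitochondrial content, 9965 Ctrl cells with 71282090 unique molecular identifiers (UMIs, 1 per captured RNA molecule) and 6718 cells labelled cKO with 64241692 UMIs were kept, with medians of 4111 and 6243.5 UMIs per cell. Cell types were gated on fixed marker genes, and 76.0% and 67.1% of cells received a type. At least 50 Ctrl cells fell into each of 15 types, and at least 50 cells of both libraries into 6: HSC/MPP (stem cells and multipotent progenitors), ProNeu, imNeu and mNeu (neutrophil progenitors, immature and mature neutrophils), monocyte and erythroid progenitor. In each of the 15 types, 2 to 6 of the 10 genes with the largest fold over all other cells were its own markers. Macrophage-gated cells were shallow, at a median of 907 UMIs in Ctrl, and held 3 Stk3 and 2 Nf2 UMIs, at or under the floor of 3 counts. UMIs of abundant neutrophil genes occurred in cells of all gates: S100a8 was found in 100% and Retnlg in 74.3% of Ctrl cells gated to other than neutrophil types, so part of a low share of cells with a UMI can come from free RNA, and this part was not separated. The gates cut across Leiden clusters of the same cells, and in the neutrophil gates these clusters differed between the libraries. Of mNeu cells, the cluster that held most in Ctrl (68.1%) held 4.09% of those labelled cKO, and the one that held most of the latter (67.4%) held 2.05% in Ctrl. For imNeu these shares were 33.8% and 2.60%, and 45.7% and 2.903%. The shares of clusters overlapped by 9.31% in mNeu, 46.2% in imNeu and 63.7% in ProNeu, against 97.1% in HSC/MPP, 83.8% in monocytes and 79.0% in erythroid progenitors. Comparisons between libraries within mNeu, imNeu and ProNeu are therefore between cells that lay mostly or partly in different clusters. The libraries were clustered together without batch correction, whereas the study aligned them by anchors. Depth differed as well, with medians of 2097 UMIs in Ctrl mNeu cells and 5703.5 in those labelled cKO. The part of batch and depth in these clusters was not tested. Of the deposited barcodes, 3010 were present in both libraries; the 2949 of them kept were deeper than the others (medians of 7647 against 3189 UMIs in Ctrl and 10030 against 2828 in cKO), and cells of a shared barcode had the same gate in 18.0% of pairs, where 16.6% follows from the shares of the types alone.

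Map4k4 itself did not separate the libraries. Its level over all kept cells was 72.6 CPM (UMIs of the gene per 1000000 UMIs of the group) in Ctrl and 64.3 CPM in the library labelled cKO, a log2 ratio of -0.17 (-0.23 to -0.12). In HSC/MPP it was 129.6 and 130.6 CPM, and in ProNeu 13.6 and 21.3 CPM, higher in the library labelled cKO. Relative to the median of all genes, the log2 ratio over all kept cells was 0.35 (0.29 to 0.40). The chemistry counts 3' ends of transcripts, and the sources used here do not say whether these lie within the deleted part of the gene, so these values do not check the label. By RT-PCR, the study itself reports that the Map4k4 transcript was lost in stem and progenitor cells after poly I:C.

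The upstream sequences of 3 members are shown because they carry the contrast described below: Yap1 and Wwtr1, the effectors that marrow cells almost lacked, and Lats2, the kinase gene with a larger share of UMIs in later neutrophil stages, which is itself a known target of YAP1 and WWTR1. Each is the 150 bases before a RefSeq transcript start on GRCm38.p6, 5′ to 3′ on the gene's strand, with the letters GGAATG, the core of the TEAD binding motif, in capitals. The windows are chr9:8004597-8004746 (minus strand) for Yap1, chr3:57575911-57576060 (minus strand) for Wwtr1 and chr14:57746124-57746273 (minus strand) for Lats2. None of them overlapped an annotated exon, and the Lats2 window lies between exons of a longer annotated transcript.
Yap1: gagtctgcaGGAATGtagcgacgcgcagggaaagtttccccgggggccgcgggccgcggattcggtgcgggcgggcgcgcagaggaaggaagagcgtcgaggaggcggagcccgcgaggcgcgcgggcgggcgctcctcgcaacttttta
Wwtr1: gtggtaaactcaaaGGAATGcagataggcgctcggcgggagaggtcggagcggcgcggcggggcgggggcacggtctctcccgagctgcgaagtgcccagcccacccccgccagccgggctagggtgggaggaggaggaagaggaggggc
Lats2: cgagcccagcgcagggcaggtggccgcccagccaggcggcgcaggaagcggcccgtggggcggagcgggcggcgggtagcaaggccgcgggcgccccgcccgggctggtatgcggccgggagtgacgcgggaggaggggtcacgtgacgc
The letters GGAATG, on either strand, occurred once in each of the Yap1 and Wwtr1 windows and not in that of Lats2. Over the 250 bases before the start, they occurred in windows of 4 of the 9 members with an entry (Sav1, Mob1a, Yap1 and Wwtr1) and in 12.6% of all 32851 windows. The ETS core CGGAAG occurred in windows of Stk4, Nf2, Lats2 and Mob1b and in 13.6% of all windows, and the C/EBP motif TTGCNNAA in none of the members' windows and in 9.56% of all. These matches are letters in a window and not binding sites. Stk3 had no entry.

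All 10 members are protein-coding genes. By the GENCODE M21 annotation of GRCm38, Yap1 spans chr9:7931999-8004596 and Wwtr1 chr3:57455649-57575910, Lats1 chr10:7681214-7716460 and Lats2 chr14:57689662-57758388, Stk3 chr15:34875496-35178921 and Stk4 chr2:164070322-164155524. Sav1 lies at chr12:69965012-69987002, Nf2 at chr11:4765845-4849536, Mob1a at chr6:83326016-83343776 and Mob1b at chr5:88720855-88764220. Paralogs did not share 3' sequence: no 50-base stretch from the last 500 bases of any member's transcripts occurred in a transcript of another member. For Lats2, 30.9% of these stretches also occurred in Gm49361, an overlapping gene on the same strand that is no row of the matrices. Exons of Sav1 overlap those of Atl1, and exons of Yap1 those of Gm20416, on the opposite strand. Whether reads of these overlaps were assigned by strand is not stated in the sources used here.

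Yap1 was at the limit of detection. Its 5 UMIs lay in 5 cells, 3 of Ctrl and 2 of the library labelled cKO, a share of 0.0300% of kept cells (0.00973 to 0.0699, Clopper-Pearson). In Ctrl, 2 of these cells were ProB and 1 mNeu, and in the library labelled cKO both were gated as plasma cells, with a median of 41390 UMIs and with UMIs of Retnlg and Cxcr2, which mark mature neutrophils, in both; of the cells labelled cKO in other than neutrophil gates, 89.0% had a Retnlg and 21.4% a Cxcr2 UMI. In 13 of 15 Ctrl types no Yap1 UMI was found: 0 of 2308 imNeu cells allows a share of up to 0.130%, 0 of 991 ProNeu cells up to 0.303%, 0 of 754 monocytes up to 0.398% and 0 of 384 HSC/MPP cells up to 0.781% (3 cells). In the same 2308 Ctrl imNeu cells, 46.8% had a Stk4 UMI.

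Wwtr1 was rare as well, and 36 of its UMIs were in cells gated mNeu. It had 66 UMIs in 59 cells, 0.354% of kept cells (0.269 to 0.456), of which 32 were gated mNeu, 17 were left without a type, 5 were HSC/MPP, 2 imNeu, 2 megakaryocyte and 1 ProNeu. In Ctrl the level was 2.47 CPM (1.07 to 4.86) in mNeu with 8 UMIs, 2.01 CPM (0.243 to 7.26) in megakaryocytes with 2 UMIs and 0.693 CPM in HSC/MPP with 3 UMIs. The 2 megakaryocytes with a UMI were 3.33% (0.406 to 11.5) of 60, and these few UMIs set no order between mNeu and megakaryocytes. In the library labelled cKO it was 4.62 CPM (3.07 to 6.67) in mNeu with 28 UMIs and 1.41 CPM in HSC/MPP with 2 UMIs. Stk3 in mNeu was also at 2.47 CPM with 8 UMIs in Ctrl, and at 1.81 CPM (0.906 to 3.25) with 11 UMIs in the library labelled cKO. No Wwtr1 UMI was found in 754 Ctrl monocytes, 423 erythroid progenitors or 317 B cells. These zeros allow shares of up to 0.398%, 0.709% and 0.946%, respectively, while 0.585% (0.253 to 1.15) of Ctrl mNeu cells had a UMI. As shares of cells, which differ in depth, these limits lie within this interval and set no difference between these Ctrl types and mNeu. In CPM the upper limits were 0.562 in monocytes and 0.538 in erythroid progenitors, below the mNeu interval of 1.07 to 4.86. That of B cells, 4.30 CPM, lies within it. Of mNeu cells labelled cKO, 2.34% (1.504 to 3.46) had a UMI. Monocytes, at a median of 7219.5 UMIs per cell in Ctrl and 11400 in the library labelled cKO, were deeper than mNeu cells at 2097 and 5703.5, and had no Wwtr1 UMI in either. With each cell thinned to 1000 UMIs, the shares in mNeu were 0.324% (0.0884 to 0.828) in Ctrl and 0.909% (0.417 to 1.72) in the library labelled cKO, and the intervals overlapped.

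Wwtr1 is best known from stromal and endothelial cells. Of the 15 Ctrl cells with a Wwtr1 UMI, 2 also had a UMI of 5 endothelial markers, 3 of 7 stromal markers and 3 of 6 megakaryocyte markers. Of the 44 such cells labelled cKO, these numbers were 2, 0 and 3. Among all other mNeu cells, 2 of 1359 in Ctrl and 0 of 1002 in the library labelled cKO had an endothelial UMI, and 4 and 3 a stromal one. In other than neutrophil gates, 4.82% and 6.84% of cells had an endothelial and 6.41% and 7.82% a stromal UMI. Megakaryocyte UMIs were in 8.39% and 1.70% of the other mNeu cells and in 23.9% and 18.3% of cells in other than neutrophil gates. Of the 44 cells with Wwtr1 labelled cKO, 39 (88.6%) had a Cxcr2 UMI, against 98.3% of the other mNeu cells and 21.6% of the cells in other than neutrophil gates of that library. In Ctrl, 8 of the 15 cells with Wwtr1 (53.3%) had one, against 91.0% and 15.7%. Cxcr2 and Retnlg are markers of the mNeu gate, which held 24 of the 44 cells, so these shares are partly set by the gate. Retnlg does not tell the 44 cells apart: all had it, but so did 89.0% of the cells in other than neutrophil gates of that library. Over all kept cells the endothelial markers summed to 5.75 CPM in Ctrl and 3.07 CPM in the library labelled cKO and the stromal markers to 7.72 and 3.04 CPM; all 5 endothelial markers had UMIs in both libraries, and 7 and 6 of the stromal markers. The gates held 1 endothelial and 3 stromal cells, all in Ctrl. The part of such cells in the Wwtr1 values was not tested. Over all kept cells Wwtr1 was at 0.224 CPM in Ctrl and 0.778 CPM in the library labelled cKO, a log2 ratio of 1.79 (0.96 to 2.71), and within mNeu the log2 ratio was 0.90 (-0.27 to 2.25). Without the cells whose barcode occurred in both libraries, 30 cells with Wwtr1 and 3 with Yap1 remained.

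**Figure D1:**
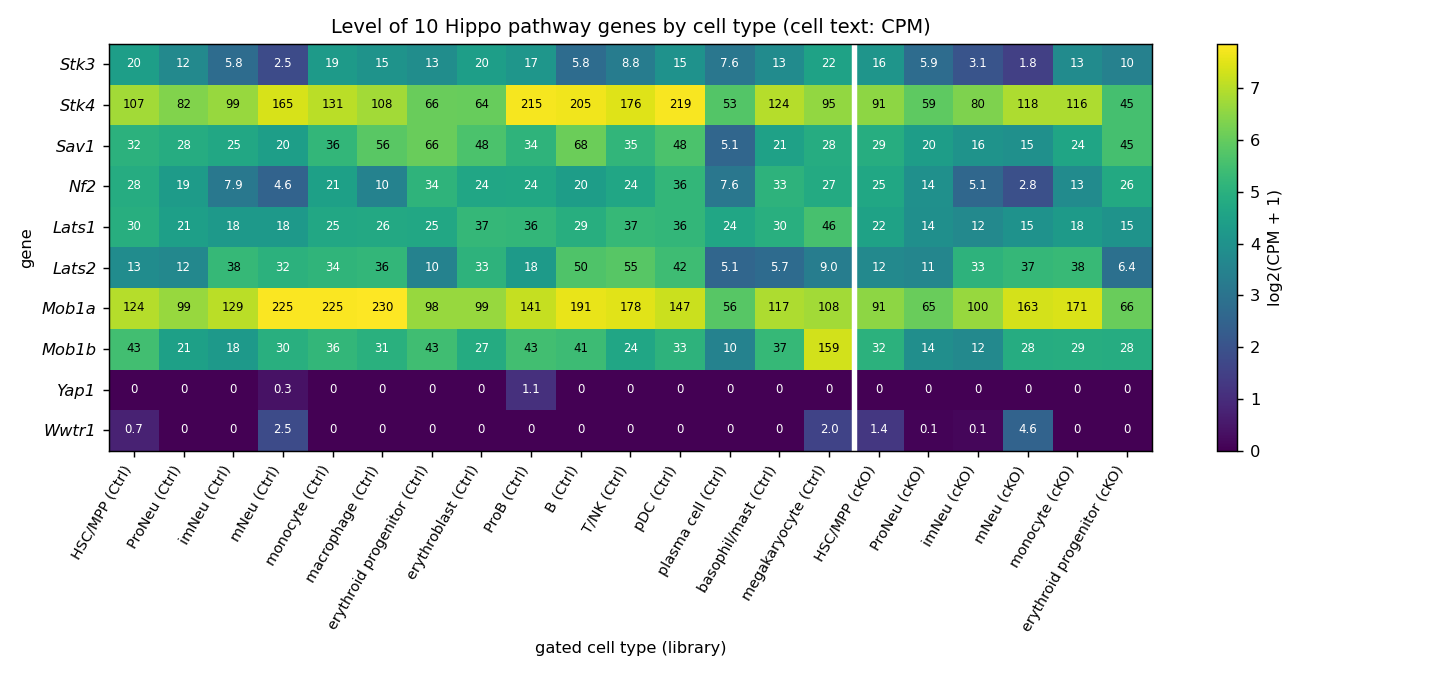
Levels of the 10 genes (rows) in the 15 cell types with at least 50 Ctrl cells and, right of the white bar, in the 6 types with at least 50 cells in the library labelled cKO (columns). Colour gives log2(CPM + 1) and the printed number CPM. Yap1 is at or near 0 in all columns, Mob1b stands out in megakaryocytes at 159 CPM and Stk3 and Nf2 are lowest in mNeu. Wwtr1 in Ctrl is at 2.47 CPM in mNeu, the same value as Stk3 there, and at 2.01 CPM in megakaryocytes, too few UMIs to set an order. In mNeu of the library labelled cKO Wwtr1 is at 4.62 CPM, where Stk3 is at 1.81 and Nf2 at 2.80 CPM.

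Among the upstream kinases, Stk4 was highest in lymphoid and plasmacytoid cells. In Ctrl its level was 219 CPM (172 to 276) in plasmacytoid dendritic cells (pDC), 215 in ProB, 205 (176 to 238) in B and 176 (140 to 219) in T/NK cells, then 165 (151 to 179) in mNeu. The first 5 types in this order did not differ from their neighbours beyond counting error, while monocytes, next at 131 CPM (122 to 140), were below mNeu. Erythroid progenitors had 66.1, erythroblasts 64.2 and plasma cells 53.1 CPM, the lowest. Stk3 had another order: megakaryocytes had 22.1 CPM (13.9 to 33.5), HSC/MPP 20.3 (16.3 to 25.0), B cells 5.83 (1.89 to 13.6), imNeu 5.80 and mNeu 2.47 (1.07 to 4.86), the last below its neighbour. The Stk3 level in megakaryocytes was thus 8.96-fold that in mNeu. As a share of Stk3 and Stk4 UMIs together, Stk3 made up 23.8% (14.9 to 34.6) in erythroblasts, 18.8% (12.2 to 27.1) in megakaryocytes, 16.9% in erythroid progenitors and 2.76% (0.903 to 6.33) in B cells of Ctrl; how well each 3' end is captured can differ between genes, so these shares compare cell types only.

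Sav1, the scaffold, was highest in B cells, at 67.6 CPM (51.4 to 87.4), and erythroid progenitors, at 66.3 CPM (60.3 to 72.6), which did not differ beyond counting error. It was at 20.05 CPM (15.5 to 25.6) in mNeu and lowest in plasma cells, with 4 UMIs. Nf2, the membrane-bound activator, was at 36.1 CPM (18.6 to 63.0) in pDC and 33.6 (29.4 to 38.2) in erythroid progenitors, against 7.93 (6.64 to 9.39) in imNeu and 4.63 (2.59 to 7.63) in mNeu. No neighbours in the order of Nf2 levels were apart beyond counting error, although its ends differed 7.80-fold.

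The genes of the LATS kinases differed in where they were high. Lats1 varied least of the 8 detected members, 2.63-fold between megakaryocytes at 46.2 CPM (33.8 to 61.7) and mNeu at 17.6 CPM (13.3 to 22.8). Lats2 varied 10.9-fold, from 55.1 CPM (35.6 to 81.3) in T/NK and 50.1 (36.3 to 67.5) in B cells, over 37.8 in imNeu, 34.3 in monocytes and 32.1 in mNeu, to 10.1 (7.83 to 12.7) in erythroid progenitors and 9.04 (4.14 to 17.2) in megakaryocytes, with plasma cells last at 5.05. Lats1 made up 83.6% (71.2 to 92.2) of Lats1 and Lats2 UMIs in megakaryocytes and 71.3% in erythroid progenitors, against 36.8% (25.4 to 49.3) in B cells.

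Of the co-activators of LATS, Mob1a was highest in macrophage-gated cells (230 CPM, 45 UMIs), monocytes (225 CPM) and mNeu (225 CPM, 209 to 242), and lowest in plasma cells at 55.6 CPM, below the next type. Mob1b had one type apart from the rest: 159 CPM (135 to 186) in megakaryocytes, followed by ProB, HSC/MPP and erythroid progenitors at 43.2, 43.2 and 42.9 CPM. The 158 Mob1b UMIs of the 60 megakaryocytes came from 58.3% of these cells. Only in this Ctrl type did Mob1b UMIs outnumber those of Mob1a, which made up 40.4% (34.4 to 46.6) of both. In the 18 megakaryocytes labelled cKO, Mob1b was at 68.1 CPM with 20 UMIs and Mob1a made up 62.3% (47.9 to 75.2).

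Among the 6 types shared by the libraries, the type with the highest level was the same in both for 7 of the 8 detected members. Lats2 was the exception (imNeu in Ctrl, monocytes in the library labelled cKO). The type with the lowest level differed for Lats1 and Mob1a. Some of these places are ties: Mob1a in Ctrl was at 225.49 CPM in monocytes and 225.45 in mNeu. The share of all genes with the same highest type was not computed, so this count is no result about the members. Over the 15 Ctrl types, plasma cells were lowest in CPM for 5 of the 8. This order is one of shares among UMIs: per cell, plasma cells held 0.592 Stk4 and 0.620 Mob1a UMIs, and mNeu cells 0.391 and 0.535.

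Along the neutrophil path the members parted. The path was set from HSC/MPP over ProNeu to imNeu and mNeu, with imNeu split by UMIs of 7 cell cycle genes (at least 10, or under 3, per 10000 UMIs) and mNeu at the median of its score over that of imNeu. These splits were chosen after values had been seen. From HSC/MPP to the upper part of mNeu the median gene had a log2 ratio of -1.40 in Ctrl and -1.58 in the library labelled cKO, and 26.6% and 25.2% of all genes were above 0. Of the members with at least 10 UMIs, 3 of 8 were above 0 in Ctrl (Lats2, Mob1a and Stk4) and 5 of 9 in the library labelled cKO (these 3, Mob1b and Wwtr1). The intervals of the last 2 include 0: Mob1b was at 0.13 (-0.39 to 0.66) and Wwtr1 at 1.74 (-0.38 to 4.92). Wwtr1 had 2 UMIs in HSC/MPP and 14 in the upper part of mNeu. It thus passed the minimum only through the stage where it was high, and its place in this count is no result.

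Lats2 rose along the path in CPM. In Ctrl it was at 13.2 CPM (9.97 to 17.1) in HSC/MPP, 11.8 (10.2 to 13.6) in ProNeu, 34.4 (30.9 to 38.1) in imNeu rich in cell cycle UMIs, 41.3 (35.5 to 47.7) in imNeu poor in them and 32.7 (23.8 to 43.7) in the upper part of mNeu. In the library labelled cKO these levels were 11.997, 11.1, 25.9, 40.0 and 38.4 CPM. The step from ProNeu to imNeu rich in cell cycle UMIs was a log2 ratio of 1.54 (1.28 to 1.81) in Ctrl and 1.22 (0.945 to 1.503) in the library labelled cKO, and the intervals of these 2 stages did not overlap in either library. With all cells thinned to 1000 UMIs, 1.81% (1.06 to 2.89) of Ctrl ProNeu and 2.83% (2.19 to 3.60) of Ctrl imNeu cells had a Lats2 UMI, against 16.5% and 23.3% without thinning, and the thinned intervals overlapped. For the library labelled cKO the thinned shares were 1.46% (0.781 to 2.49) and 3.64% (2.78 to 4.68), which did not overlap. Per cell, Lats2 in Ctrl went from 0.184 UMIs in ProNeu to 0.344 in imNeu rich in cell cycle UMIs, and then to 0.209 in imNeu poor in them and 0.0684 in the upper part of mNeu, below the 0.148 of HSC/MPP. In the library labelled cKO the upper part of mNeu held 0.212 and HSC/MPP 0.160 Lats2 UMIs per cell. Cells with fewer than 1000 UMIs were left out of the thinned shares, 53 ProNeu and 46 imNeu cells in Ctrl and 219 and 60 in the library labelled cKO. Lats1 did not follow: its log2 ratio from HSC/MPP to the upper part of mNeu was -0.39 (-1.01 to 0.18) in Ctrl and -0.30 (-0.96 to 0.39) in the library labelled cKO. The Lats1 share of Lats1 and Lats2 UMIs was 63.7% (59.3 to 67.9) in ProNeu and 30.4% (26.5 to 34.6) in imNeu rich in cell cycle UMIs of Ctrl, and 55.9% and 27.2% in the library labelled cKO.

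Stk3 and Nf2 fell along the path in CPM in both libraries, as did the median gene. Stk3 was at 20.3 CPM (16.3 to 25.0) in HSC/MPP, 11.999 in ProNeu, 7.76 in imNeu rich in cell cycle UMIs, 2.23 (1.07 to 4.10) in imNeu poor in them and 3.63 (1.18 to 8.47) in the upper part of mNeu of Ctrl. The last value rests on 5 UMIs. In the library labelled cKO it was 16.2, 5.88, 4.13, 2.31 and 1.01 CPM. The log2 ratio between the ends was -2.49 (-4.14 to -1.21) in Ctrl and -4.01 (-6.39 to -2.28) in the library labelled cKO, where the Ctrl interval includes the median gene's value and that of the library labelled cKO lies below it. Nf2 went from 27.9 CPM (23.2 to 33.4) over 18.9 in ProNeu to 7.57 (5.99 to 9.43) in imNeu rich in cell cycle UMIs of Ctrl, and from 24.7 over 14.4 to 5.57 CPM in the library labelled cKO. The step from ProNeu was -1.32 (-1.70 to -0.95) and -1.37 (-1.80 to -0.95) on the log2 scale, where the median gene was at -0.68 and -0.73. Between the ends of the path Nf2 had log2 ratios of -2.27 (-3.51 to -1.24) with 8 UMIs in the upper part of mNeu of Ctrl and -2.39 (-3.40 to -1.46) in the library labelled cKO, and both intervals include the median gene's value. In CPM, Nf2 fell at the step at which Lats2 rose in both libraries.

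Stk4 and Mob1a rose from imNeu onwards. Stk4 was at 107 CPM in HSC/MPP, 82.0 in ProNeu and 174 (153 to 198) in the upper part of mNeu of Ctrl, a log2 ratio of 0.70 (0.47 to 0.93) between the ends, and 0.48 (0.19 to 0.78) in the library labelled cKO. For Mob1a these ratios were 0.96 (0.76 to 1.16) and 0.91 (0.62 to 1.196). Per cell, Ctrl levels went the other way: Ctrl HSC/MPP held 1.21 Stk4 and 1.40 Mob1a UMIs per cell, and the upper part of mNeu 0.365 and 0.506, at medians of 9531 and 1896 UMIs per cell, so the rise is one of the share among UMIs. Stk3 made up 15.97% (13.0 to 19.3) of Stk3 and Stk4 UMIs in HSC/MPP and 2.04% (0.666 to 4.70) in the upper part of mNeu in Ctrl, and 15.1% and 0.787% in the library labelled cKO.

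**Figure D2:**
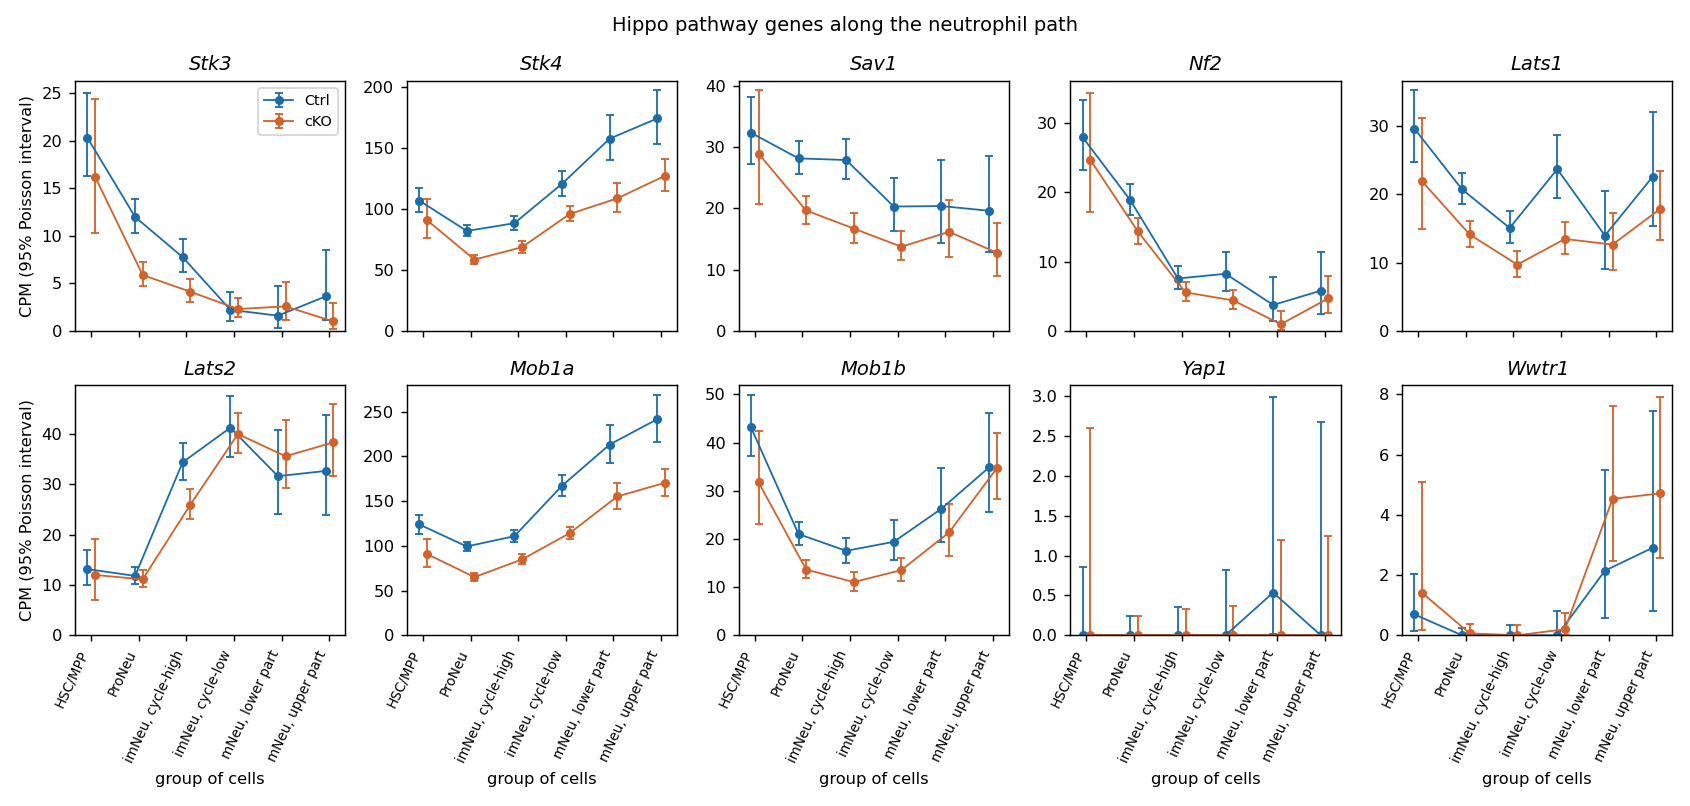
CPM of each gene in 6 groups of cells along the neutrophil path (x axis) in Ctrl (blue) and the library labelled cKO (orange), with 95% Poisson intervals; y axes start at 0 and differ between genes. Lats2 goes from 11.8 CPM in ProNeu to 34.4 CPM in cycle-high imNeu of Ctrl while Nf2 goes from 18.9 to 7.57 CPM.

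Sav1 was lower at the end of the path, with log2 ratios of -0.72 (-1.37 to -0.12) in Ctrl and -1.18 (-1.85 to -0.51) in the library labelled cKO. The Ctrl interval lies just above the median gene's value of -1.40, and that of the library labelled cKO includes the median gene's -1.58. With the stages scaled by the median of gene ratios the direction turned: from HSC/MPP to all mNeu cells, Sav1 was then at 0.48 in Ctrl and 0.69 in the library labelled cKO, and Lats1 and Mob1b in Ctrl turned to 0.42 and 0.64. Only turns of values whose interval excluded 0 before scaling are given here. Mob1b took a dip, from 43.2 CPM in HSC/MPP to 17.5 (15.1 to 20.3) in cycle-high imNeu and 34.8 (25.7 to 46.2) in the upper part of mNeu of Ctrl, and 31.8, 11.04 and 34.7 CPM in the library labelled cKO. From cycle-low imNeu to the upper part of mNeu, Mob1b rose by 0.84 (0.30 to 1.37) and 1.36 (0.97 to 1.74) on the log2 scale.

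Between the libraries, the comparison asks whether the genes of the pathway had another level where Map4k4 was targeted. Over all kept cells 5 of the 9 members with at least 10 UMIs were at least 1.5-fold lower in the library labelled cKO (Stk3, Sav1, Nf2, Lats1 and Mob1b), beside 46.4% of all 15489 genes, and 1, Wwtr1, was at least 1.5-fold higher, beside 4.27%. The median log2 ratio of these members was -0.73, and that of all genes -0.53. A share of 5 in 9 is near that of all genes. Stk3 had 824 UMIs (11.6 CPM) in Ctrl and 331 (5.15 CPM) in the library labelled cKO, a log2 ratio of -1.17 (-1.35 to -0.98), the lowest among the 9. Nf2 was at 18.1 and 9.85 CPM (-0.87, -1.01 to -0.74), Sav1 at 32.8 and 19.3 CPM (-0.77, -0.87 to -0.67), Mob1b at 29.5 and 17.7 CPM (-0.74, -0.84 to -0.63) and Lats1 at 23.2 and 13.9 CPM (-0.73, -0.85 to -0.61). Mob1a, at 134 and 102 CPM, and Stk4, at 106 and 81.4 CPM, were lower by less than 1.5-fold. Lats2 did not differ beyond counting error, at 24.0 CPM with 1714 UMIs in Ctrl and 25.2 CPM with 1619 UMIs in the library labelled cKO (0.07, -0.03 to 0.17).

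The makeup of the libraries differed beside these pooled ratios: HSC/MPP were 3.85% of Ctrl and 1.58% of cKO cells, ProB 264 and 2 cells and B 317 and 15 cells. The 6 megakaryocyte markers summed to 199.1 CPM in Ctrl and 45.3 CPM in the library labelled cKO, all 6 with UMIs in both, and megakaryocytes were the Ctrl type with the highest Stk3, Lats1 and Mob1b; their part in the pooled ratios was not tested. In such sums alone fewer cells of a type and less RNA per cell cannot be told apart. The gates held 60 megakaryocytes in Ctrl (0.602% of kept cells) and 18 labelled cKO (0.268%), at medians of 12486.5 and 14678.5 UMIs per cell. With the 6 shared types weighted equally, 0 of the 9 members were at least 1.5-fold lower (Stk3 -0.54, Sav1 -0.50, Lats1 -0.49), beside 19.4% of all 15442 genes, and Wwtr1 was at least 1.5-fold higher (0.97), beside 6.9%. Relative to the median of all genes, which lay at -0.52 over genes seen in both libraries, Stk3 was at -0.65 (-0.83 to -0.46), Nf2 at -0.35, Sav1 at -0.25, Mob1b at -0.22 and Lats1 at -0.21, while Stk4 was at 0.14, Mob1a at 0.12 and Lats2 at 0.59 (0.49 to 0.69).

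Within cell types the members were mostly lower in the library labelled cKO, as were most genes. The members at least 1.5-fold lower were 0 of 8 in HSC/MPP (16.3% of all genes), 3 of 8 in ProNeu (22.6%), 4 of 8 in imNeu (33.2%), 1 of 9 in mNeu (43.7%), 2 of 8 in monocytes (24.6%) and 3 of 8 in erythroid progenitors (23%). In mNeu 1 of 9, Wwtr1, was at least 1.5-fold higher (3.99%), and no member was in HSC/MPP (9.38%), ProNeu (3.24%), imNeu (3.03%), monocytes (5.26%) or erythroid progenitors (5.93%). Wwtr1 in mNeu had 8 UMIs in Ctrl and 28 in the library labelled cKO, and its interval includes 0. It passed the minimum only through the library where it was higher, so this call is no result. No test was made of these counts of members, with 1 library per group. Of the 49 values, 29 had an interval below 0 and none above 0, beside 37.2% and 9.25% of the 67958 values of all genes in these types. Relative to the median gene of each type, 17 had an interval below 0 and 6 above, beside 16.6% and 20.98% of all; genes with more UMIs have narrower intervals.

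Stk3 in ProNeu stood lowest of the 49 values: 11.999 CPM with 185 UMIs in Ctrl and 5.88 CPM with 91 UMIs in the library labelled cKO, a log2 ratio of -1.03 (-1.41 to -0.66) where the median gene was at -0.28. ProNeu cells labelled cKO were shallower, at a median of 6922.5 UMIs against 15532 in Ctrl, and 202 cells lay within 0.1 of the cut of the gate on either side beside 1108 inside it, against 114 beside 991 in Ctrl. The largest cluster of both held 52.4% of Ctrl ProNeu cells and 31.7% of those labelled cKO; the next cluster of those labelled cKO held 20.5% of them and 0.404% of Ctrl ProNeu cells. The part of these differences in the ratio was not tested. In imNeu Stk3 was at 5.80 and 3.13 CPM (-0.89, -1.35 to -0.43). The other members past 1.5-fold in ProNeu were Mob1a (-0.61) and Mob1b (-0.62), and in imNeu Sav1 (-0.71), Nf2 (-0.64) and Mob1b (-0.61). In monocytes they were Nf2 (-0.73, -1.21 to -0.26) and Sav1 (-0.61). In erythroid progenitors they were Lats1 (-0.70, -1.22 to -0.21), Lats2 (-0.65, -1.48 to 0.12) and Mob1b (-0.62), and in mNeu Nf2 (-0.72, -1.81 to 0.38) with 15 and 17 UMIs.

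Lats2 was the member with point estimates above 0 in both mNeu and monocytes, though neither was past 1.5-fold. It was at 32.1 CPM in Ctrl and 36.9 CPM in the library labelled cKO in mNeu, and at 34.3 and 38.3 CPM in monocytes, with log2 ratios of 0.20 (-0.14 to 0.55) and 0.16 (-0.14 to 0.46). Neither differed from 0 beyond counting error. Relative to the median gene these ratios were 0.76 (0.42 to 1.11) and 0.39 (0.09 to 0.69), and in imNeu, where Lats2 was below 0 in CPM (-0.21, -0.36 to -0.05), 0.20 (0.04 to 0.35). The mNeu cells of the libraries shared few clusters, as given above. In HSC/MPP the 8 members ran from -0.45 for Mob1a (-0.735 to -0.166) to -0.13 for Lats2. Their median was -0.28, where that of all genes was -0.10. Only the interval of Mob1a excluded 0.

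**Figure D3:**
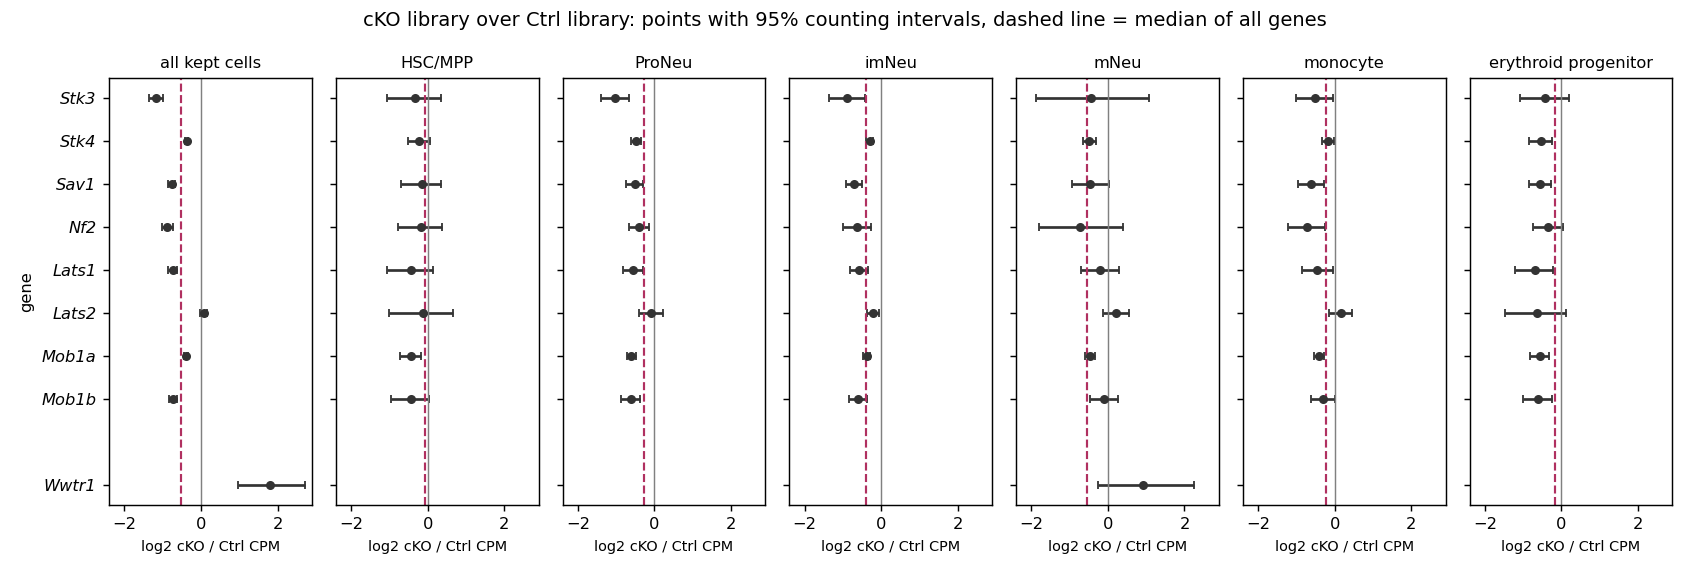
log2 ratio of CPM, library labelled cKO over Ctrl (x axis), of each member with at least 10 UMIs over both libraries (rows; Yap1 has too few) over all kept cells and in 6 cell types, with 95% counting intervals. Points mostly lie left of 0, as does the median of all genes (dashed), while Lats2 lies right of the dashed line in mNeu, at 0.20 against -0.56, and in monocytes, at 0.16 against -0.23.

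The rest of the pathway was read from 7 fixed lists of 66 genes, of which 51 had at least 10 UMIs over both libraries and 29 were above 10 CPM. Of all 32285 genes listed, 19918 had a UMI in kept cells and 7684 had at least 10 CPM. Over all kept cells 21 of the 51 were at least 1.5-fold lower in the library labelled cKO and 2 at least 1.5-fold higher, beside 46.4% and 4.27% of all genes. The median log2 ratio of the 51 was -0.46, where that of all genes was -0.53.

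Around the core, 3 of 3 TAO kinase, 4 of 7 NDR kinase and MOB, 9 of 10 STRIPAK and 5 of 6 RASSF genes were above 10 CPM. Beside them stand 7684 of the 32285 genes listed. The 3 TAO kinases, which activate STK3 and STK4, were at 110.6 CPM (Taok3), 79.4 (Taok1) and 41.9 (Taok2) in Ctrl, and 1, Taok1, was at least 1.5-fold lower (-0.66). Of the 7 NDR kinase and other MOB genes, relatives of the LATS and MOB1 genes, 2 were lower; Stk38 was at 119 and 113 CPM, Mob3a at 43.9 and 46.0 CPM and Mob4 at 45.4 and 41.3 CPM. Of the 10 genes of the STRIPAK complex, a phosphatase complex that acts against STK3 and STK4, 4 were lower, with Fgfr1op2 at 141 and 97.4 CPM, Ppp2ca at 109 and 69.3 CPM (-0.66) and Ppp2r1a at 68.1 and 67.4 CPM. Of the 6 RASSF genes, whose proteins bind STK3 and STK4, 1 was lower; Rassf3 was at 68.3 and 65.6 CPM, Rassf5 at 59.3 and 61.0 CPM and Rassf2 at 58.3 and 50.7 CPM.

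Of the genes near the membrane and at the output, 2 of 11 junction and adaptor genes, 1 of 8 TEAD and VGLL genes and 5 of 22 target genes were above 10 CPM. The member Lats2 is among these target genes. Over all genes, 7684 of 32285 listed and of 19918 with a UMI had at least 10 CPM, so the target genes do not stand apart by this count. Of the 11 junction and adaptor genes 8 had enough UMIs, and all 8 were at least 1.5-fold lower, beside 46.4% of all genes, with a median log2 ratio of -1.203. Some of the 8 rest on few UMIs: Wtip had 10 and 1, Amotl1 42 and 1, and Ajuba 27 and 14 (-0.80, -1.84 to 0.18). Wtip and Amotl1 passed the minimum only through Ctrl, where they were higher, so their calls are no result. The count of 8 is therefore not read against the share of all genes. Limd1 was at 42.6 and 22.8 CPM (-0.90, -0.99 to -0.81), Wwc2 at 17.2 and 8.30 CPM (-1.05) and Frmd6 at 9.55 and 5.46 CPM (-0.81). Frmd6 and Amotl1 were highest in ProB and Limd1 in B cells of Ctrl, types with 2 and 15 cells in the library labelled cKO. Of the 4 TEAD genes, Tead2 had 73 UMIs (31 and 42, the other gene at least 1.5-fold higher, 0.59, -0.12 to 1.31), Tead3 13, Tead1 5 and Tead4 4 over both libraries. Of the VGLL genes, whose proteins compete for TEAD, Vgll4 was at 27.1 and 22.8 CPM, and Vgll1, Vgll2 and Vgll3 had no UMI. Among 22 genes of a YAP1 and WWTR1 target signature, 7 had under 10 UMIs, and Ccn1, Ankrd1 and Foxf2 had none and Ccn2 had 2. The members of the signature with most UMIs were Asap1 (102 and 80.8 CPM), Gadd45a (51.7 and 50.9 CPM) and Dock5 (40.4 and 43.7 CPM). Of its 15 tested genes 5 were lower and 1, Ccdc80, was higher (0.72, 0.44 to 1.003), beside 46.4% and 4.27% of all genes. Among the lower genes, Fjx1 had 10 and 2 UMIs and Arhgef17 20 and 8 (-1.17, -2.56 to 0.07). Both passed the minimum only through Ctrl, so their calls are no result. Axl was highest in macrophage-gated cells, and Ptpn14 is also a junction and adaptor gene.

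**Figure D4:**
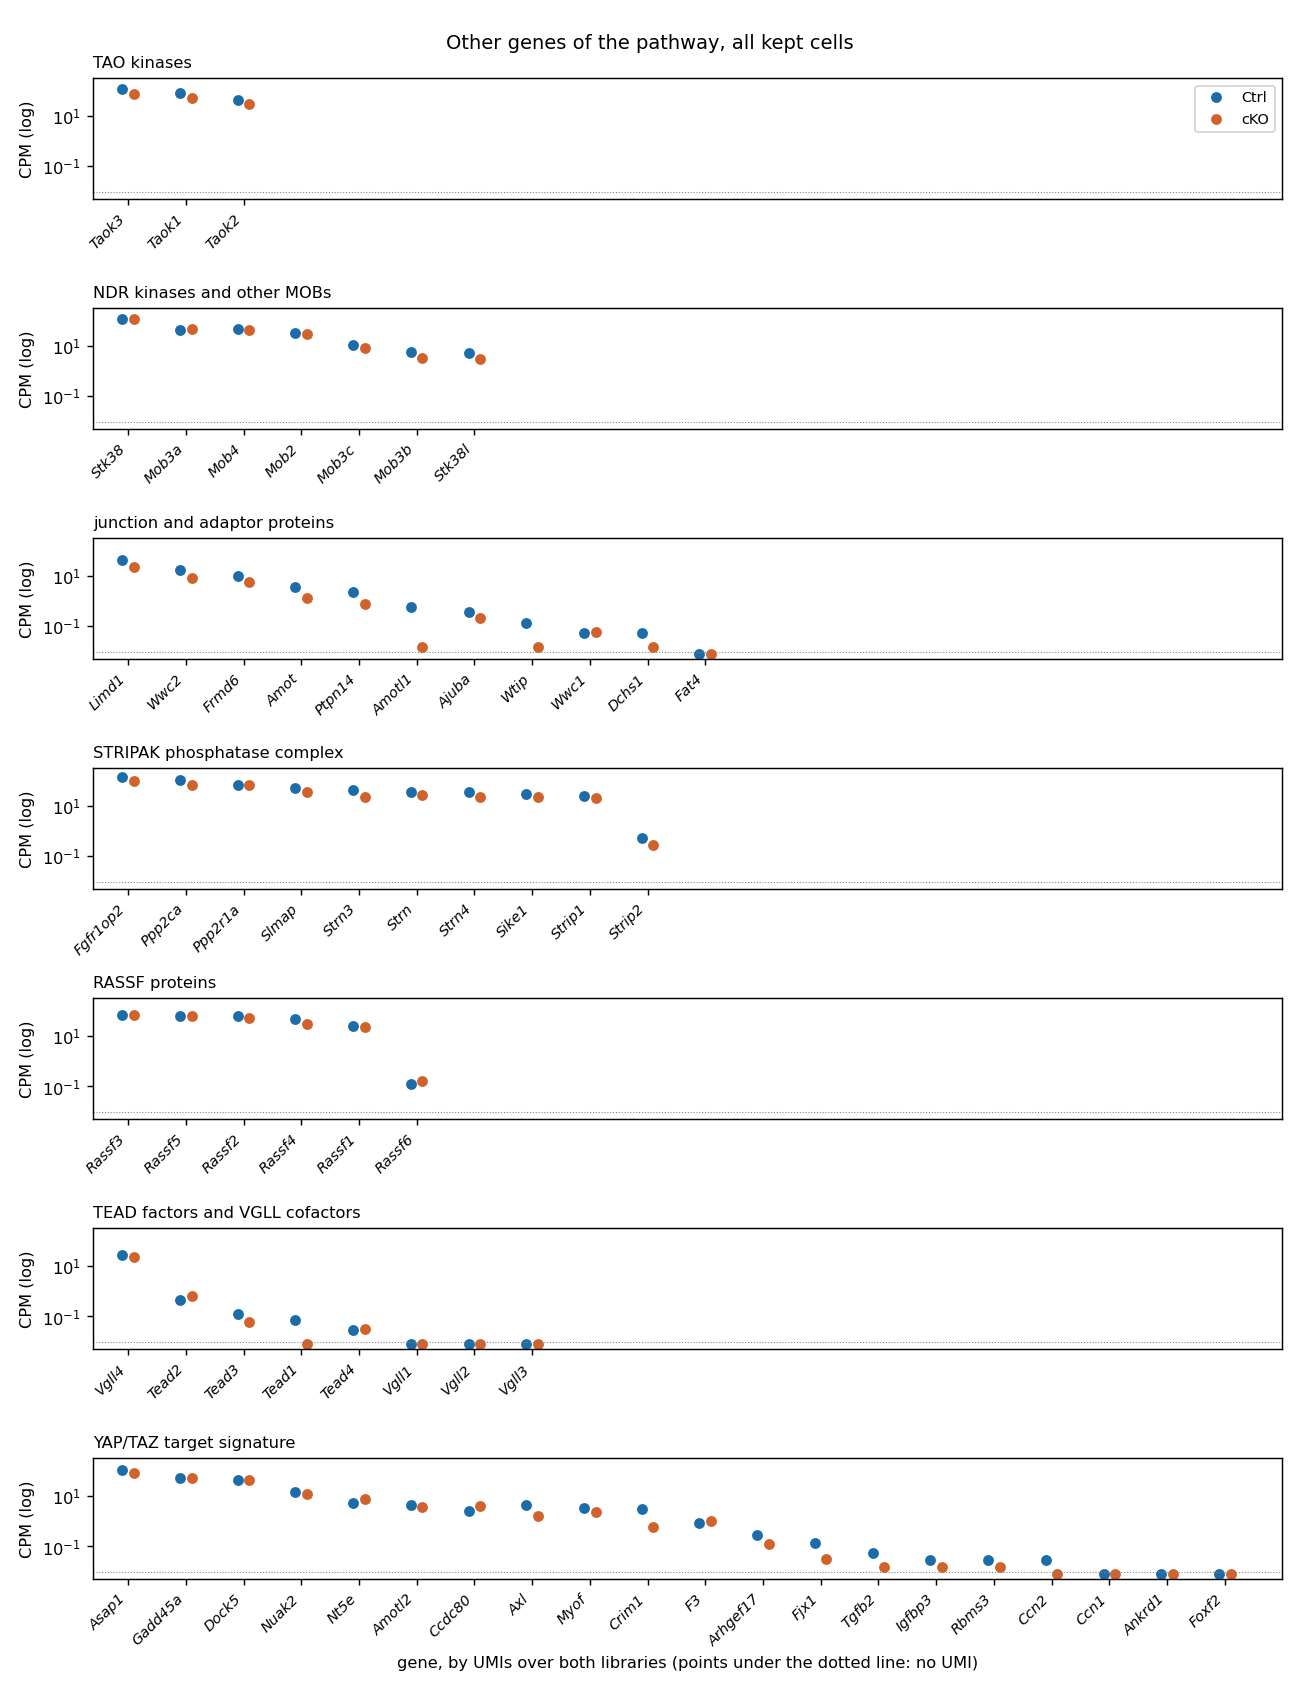
CPM over all kept cells, on a log axis, of the other pathway genes by list (panels; Lats2 and the second entry of Ptpn14 are left out of the target signature) in Ctrl (blue) and the library labelled cKO (orange); points under the dotted line had no UMI. TAO kinase and most STRIPAK and RASSF genes lie above 10 CPM, whereas the TEAD genes lie under 1 CPM.

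The genes most like each member over 21 pairs of cell type and library were sought among 7684 genes with at least 10 CPM, by Pearson's r of log2(CPM + 1), as a description; the pairs of a library share its depth. They were Isg20l2 (0.98), Ep400 (0.97) and Pnn (0.97) for Nf2, Abi1 (0.95), Rnf115 (0.91) and Actr2 (0.90) for Mob1a, and Baz2a (0.93), Fbxo11 (0.93) and Tle3 (0.91) for Stk4. For Stk3 they were Tmco1 (0.92), Rnf168 (0.92) and Ube2e3 (0.92), and for Sav1 Atxn2 (0.90), Fam20b (0.88) and Bcl7b (0.88). For Lats1 they were Luc7l2 (0.89), Pwwp2a (0.88) and Gtf2a1 (0.87), for Lats2 Pitpnm1 (0.87), N4bp2l1 (0.86) and Tmem134 (0.84), and for Mob1b Micu2 (0.90), Kif2a (0.87) and Zfand5 (0.86). No member was among the genes most like another.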

How the data were processed

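The authors deposited raw UMI counts per gene and barcode for 2 libraries made with the BMKMANU DG1000 kit, produced per the labels' processing notes with Cell Ranger 5.0.0 on mm10 (GRCm38). The study's cell limits were applied: a minimum of 200 and a maximum of 9000 genes, with mitochondrial UMIs not above 30%. Gates used the mean z score (at most 5) of log-normalized markers of 19 types: at least 3 markers detected, a score of at least 0.75 and a margin of at least 0.5 over the next type. Other cells, those too close to a second type included, stayed without a type. No doublet caller was run. UMIs were summed per type and library, since cells are not replicates. Levels carry exact Poisson, shares Clopper-Pearson and ratios exact binomial 95% intervals, which cover counting error only. A count of 0 allows up to 3 counts. Called means at least 1.5-fold with at least 10 UMIs over both libraries. The ratio interval was run on simulated independent Poisson sums, the model that it assumes. That run checks the calculation and not whether the UMIs of these cells follow the model. Named were the 10 members, Map4k4, the 3 genes with most UMIs of each pathway list and the 3 genes most like each member with at least 1000 UMIs; other genes were named after their values were seen. Members and lists were chosen with earlier results of these data known. Upstream sequences are from RefSeq (GRCm38.p6), with an entry for 9 of 10 members. Python 3.11.15, numpy 2.4.6, scipy 1.17.1 and pandas 2.3.3 were used.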

Additional observations from a re-analysis of the deposited data

Results flagged for a closer look

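For Mob1b and Stk4 the ratio between the libraries, taken relative to the median gene of each cell type, lay on opposite sides of 0 in different types with intervals that exclude 0. The difference between types was not tested. Mob1b was at 0.45 (0.08 to 0.83) in mNeu, against -0.35 (-0.60 to -0.09) in ProNeu and -0.45 (-0.83 to -0.09) in erythroid progenitors. Stk4 was at 0.10 (0.01 to 0.20) in imNeu, against -0.21 (-0.33 to -0.09) in ProNeu and -0.38 (-0.67 to -0.09) in erythroid progenitors. On the CPM scale no member had such a pair.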

How the results depend on the processing

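No paired analysis was possible because each group had 1 library, and for the same reason no replicate could be left out. Scaling by the median of gene ratios turned the direction of 12 values whose interval excluded 0. The direction of a member between libraries or stages is therefore relative to the scale. Over all kept cells Stk4 and Mob1a became 0.14 and 0.12. In imNeu Stk4, Lats2 and Mob1a became 0.10, 0.20 and 0.024. In mNeu Stk4 and Mob1a became 0.071 and 0.085, and in monocytes Stk4 became 0.057. From HSC/MPP to mNeu, Sav1 became 0.48 in Ctrl and 0.69 in the library labelled cKO, and in Ctrl Lats1 became 0.42 and Mob1b 0.64. Values whose interval included 0 turned as well. Among them were the ratios between libraries of Stk3, Sav1, Lats1 and Mob1b in mNeu, which became 0.11, 0.089, 0.34 and 0.45. Under this scaling 1 member (main value 5) was lower and 2 (1) higher over all kept cells, 1 (13) lower and 2 (1) higher within types, and 8 (21) pathway genes lower and 8 (2) higher. Lower members over all kept cells numbered 3 by the mean of each cell's own proportion, 0 at equal cell type makeup and 1 at a fold of 2. Lower pathway genes numbered 8 at equal makeup and 10 at a fold of 2. Higher pathway genes numbered 1 with a floor of 1000 UMIs per cell, 1 with a mitochondrial ceiling of 10%, 1 by the mean of proportions, 0 at a fold of 2 and 1 without barcodes found in both libraries. Within types a fold of 2 left 1 value lower and 0 higher, and a minimum of 50 UMIs 0 higher. The 1 value higher within types in the main setting was Wwtr1 in mNeu, whose call is no result. With 2 UMIs required, 0 cells had Yap1 and 7 Wwtr1; without shared barcodes, 3 and 30 did. Floors, ceilings, Leiden clusters, the study's signature genes as markers and, added after the data were seen, looser or stricter gates turned the direction of no member's ratio whose interval excluded 0. Over the alternatives run, 24 CPM levels moved past their counting interval and 936 did not. Of the shares of cells with a UMI, 161 moved and 79 did not, at other thinning depths or without thinning. Of the ratios over all kept cells, 17 moved, 2 turned and 44 did neither. Within types these numbers were 19, 6 and 416, and from HSC/MPP to mNeu 12, 4 and 144. Of the counts, 23 moved and 45 did not. Depth limits Yap1, with 5 UMIs in all, and Stk3 in the upper part of mNeu, with 5 UMIs in Ctrl and 3 in the library labelled cKO.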
